A study of Sminthopsis crassicaudata with 9 samples.

Results

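Genes of blood vessel growth were followed in the face of the newborn fat-tailed dunnart, a small carnivorous marsupial, through their RNA level and the histone marks around their transcription start sites (TSS). The set names 9 genes by function: the ligands VEGFA and PDGFB, the receptors KDR, FLT1, TIE1, TEK and PDGFRB, and the endothelial surface proteins CDH5 and PECAM1. A row of the RNA count table was found for 8 of the 9, out of 21703 gene models, and PECAM1 was not analysed here.

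The study profiled H3K4me3 and H3K27ac by ChIP-seq with 2 replicates each, and an input library for each replicate, in facial prominences of pouch young under 24 hours old. Each replicate is a pool, labelled as 26 heads for replicate 1 and 27 heads for replicate 2, and both marks and the input of a replicate share that pool. RNA came from 3 libraries of the face, each a pool of 2 young, which carry the names FP1, FP2 and FP3 in the table. All samples are untreated animals of 1 tissue and 1 age, with the tongue, neural tube and eye primordia dissected away, so the series has no groups to compare and no test between conditions was possible.

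Blood vessels grow when endothelial cells, the cells that line them, answer ligands released by the tissue around them. VEGFA binds the receptors KDR, which carries the main growth signal, and FLT1, which binds the ligand tightly and signals weakly. The sprouting cells release PDGFB, which draws PDGFRB-bearing pericytes and smooth muscle cells (mural cells) onto the new vessel, while the angiopoietin receptor TEK and its relative TIE1 steady the vessel and CDH5 holds endothelial cells together. H3K4me3 marks active start sites and H3K27ac marks active promoters and enhancers. A peak that carries H3K27ac with no shared base of H3K4me3 is therefore read in the field as a putative enhancer.

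The RNA libraries held 16096971 to 17419099 counted fragments. Levels are in TPM, a share of the library's transcripts corrected for the exon length of each gene, and a gene was called expressed when it exceeded 1 TPM in all 3 libraries. The labelled tissue was checked by marker lists: all 8 markers of facial mesenchyme and all 6 of facial epithelium were expressed, and of 8 markers of the removed eye and neural tissue only the lens crystallin CRYAA was, at 3.50 ± 0.889 TPM (SD, n = 3 libraries). The mesenchymal markers were led by TWIST1, MSX1 and ALX1 (287, 100.2 and 75.4 TPM), and the epithelial ones by KRT8, KRT18 and CDH1 (289, 90.1 and 76.7 TPM). In a bulk library, fewer cells of a type and less RNA per cell cannot be told apart.

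All 8 vessel genes were expressed, against a background of 56.5% of all genes with counts. Their mean levels ran from 3.98 to 78.1 TPM, with a median of 11 TPM. The median over all genes, unexpressed ones included, was 3.83 TPM. Among expressed genes only, KDR, PDGFRB, FLT1, PDGFB and TEK lay at percentiles 33.4, 32.3, 27.4, 23.3 and 12.3. TIE1, CDH5 and VEGFA lay at percentiles 62.4, 61.4 and 83.9. The ligand of the endothelial receptors stood highest and the angiopoietin receptor TEK lowest.

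VEGFA, the ligand that starts vessel sprouting, measured 87.9, 75.1 and 71.4 TPM in FP1, FP2 and FP3. Every library gave it the highest level of the set, at 78.1 ± 8.65 TPM (SD, n = 3), which placed it at the 83.9th percentile of expressed genes. Its gene model has 8 exons over 21.3 kb on the minus strand of scaffold00068, from 6653087 to 6674352 in the dunnart assembly of the study.

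PDGFB, the ligand by which endothelial cells recruit mural cells, lay much lower. Its levels were 9.82, 6.54 and 5.45 TPM, with a mean of 7.27 ± 2.27 TPM (SD, n = 3). FP1 was the high library here, 1.80 times FP3, from counts of 365, 200 and 182 fragments. The gene spans 21.9 kb with 8 exons on scaffold00017, from 7585067 to 7606932 on the plus strand.

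KDR, the main signalling receptor for VEGFA, measured 13.1, 11.2 and 9.44 TPM across FP1 to FP3 and averaged 11.2 ± 1.81 TPM (SD, n = 3). FLT1, the decoy-like receptor for the same ligand, measured 8.66, 9.34 and 8.11 TPM, a mean of 8.70 ± 0.616 TPM. KDR exceeded FLT1 in all 3 libraries, by 1.29 ± 0.189 times within a library. The ligand exceeded its signalling receptor in each library, with VEGFA at 6.72, 6.69 and 7.56 times KDR in TPM. KDR has 27 exons over 44.1 kb on scaffold00001 (82299196 to 82343302, minus strand), whereas FLT1 has 30 exons over 172 kb on scaffold00004 (454359 to 626324, plus strand).

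The receptors of the angiopoietin system were far apart. TIE1, an orphan receptor that works together with TEK, measured 42.8, 26.6 and 26.6 TPM, so FP1 stood at 1.61 times the other libraries and the mean was 32.0 ± 9.37 TPM (SD, n = 3). TEK, which binds the angiopoietins, measured 4.01, 3.79 and 4.16 TPM, a mean of 3.98 ± 0.187 TPM. Within a library TIE1 was 10.7, 7.02 and 6.40 times TEK, and the ranges of the pair did not overlap. TEK rested on 162, 126 and 151 fragments, for which counting alone gives a coefficient of variation of 7.86% to 8.91%. The coefficient seen between libraries was 4.70% by TPM, below that counting error, but 16.7%, above it, with TMM factors, a scaling that sets most genes to a common level across libraries. TIE1 spans 27.4 kb with 23 exons (scaffold00016, 11534704 to 11562132, plus strand) and TEK 167 kb with 21 exons (scaffold00038, 221521 to 388662, minus strand).

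CDH5, the cadherin of endothelial junctions, measured 34.3, 32.0 and 26.1 TPM in the 3 libraries, with a mean of 30.8 ± 4.23 TPM (SD, n = 3). It kept the steadiest proportion to KDR of the ratios computed, at 2.62, 2.85 and 2.76 times that receptor. Its 14 exons cover 46.6 kb of scaffold00007 (33940295 to 33986891, minus strand), where an antisense gene model, LOC116421339, overlaps it. That model had 0 TPM in every library, and the counting was stranded.

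PDGFRB, the mural receptor for PDGFB, measured 10.2, 15.2 and 7.03 TPM, with a mean of 10.8 ± 4.13 TPM (SD, n = 3). FP2 was its highest library and FP3 its lowest, 2.17 times apart. That was the widest spread of the set by TPM, whereas with TMM factors PDGFRB spread 1.70 times, less than TIE1 at 1.92 and PDGFB at 1.79 times. Against its own ligand the receptor stood at 1.04, 2.33 and 1.29 times in TPM. Its 23 exons span 68.9 kb of scaffold00039 (12677222 to 12746114, minus strand).

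**Figure D1:**
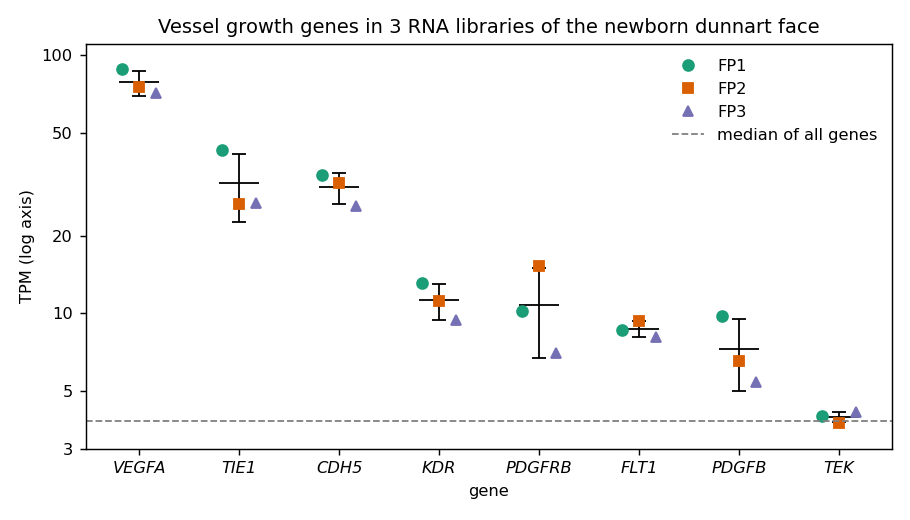
TPM of each vessel gene in the RNA libraries FP1, FP2 and FP3 (points, log axis), with the mean and SD over the 3 libraries in black and the median of all genes as a dashed line. VEGFA stands above all others at 78.1 ± 8.65 TPM, TIE1 and CDH5 lie next to each other at 32.0 and 30.8 TPM, and TEK lies lowest at 3.98 ± 0.187 TPM, next to the median gene at 3.83 TPM.

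In order of mean level the genes were VEGFA, TIE1, CDH5, KDR, PDGFRB, FLT1, PDGFB and TEK. The steps from VEGFA to TIE1, from CDH5 to KDR and from PDGFB to TEK exceeded the spread, with no overlap of library ranges and the same direction in 3 of 3 libraries. Neighbours within the 2 intermediate stretches did not differ beyond their spread: TIE1 and CDH5 overlapped, as did KDR with PDGFRB, PDGFRB with FLT1, and FLT1 with PDGFB, each in the same order in 2 of 3 libraries. The order of means turned within these stretches when a library was left out. Without FP1, CDH5 (29.1 TPM) stood above TIE1 (26.6 TPM), and PDGFRB stood above KDR without FP1 (11.1 against 10.3 TPM) and without FP3 (12.7 against 12.1 TPM).

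The libraries did not rank the members alike. FP1 was the highest library for 5 of the 8, VEGFA, TIE1, CDH5, KDR and PDGFB, while 27% of all expressed genes were highest there. Other endothelial markers shared that library: 10 of the 12 measured were highest in FP1, and their summed level was 448 TPM in FP1, 289 TPM in FP2 and 276 TPM in FP3. PLVAP, a protein of endothelial pores, made up much of that sum at 243, 130 and 117 TPM. The part of the endothelial markers in the FP1 level of the vessel genes was not tested.

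Of the remaining members, PDGFRB and FLT1 were highest in FP2 and TEK in FP3. FP2 was the highest library for 61.2% of expressed genes by TPM, a share that moves with the scaling of the libraries. With TMM factors, an alternative chosen after seeing the data, the shares of genes highest in FP1, FP2 and FP3 were 36.1%, 31.2% and 32.8%, the same 5 members remained highest in FP1, and FLT1 became highest in FP3. Markers of other cell types moved differently between libraries. The 8 leukocyte markers summed to 66.2, 60.0 and 37.2 TPM, the 5 erythroid markers to 194, 313 and 236 TPM, the 11 mural markers to 2338, 2185 and 2303 TPM and the 6 epithelial markers to 516, 646 and 615 TPM. Their part in the spread of the vessel genes was not tested.

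**Figure D2:**
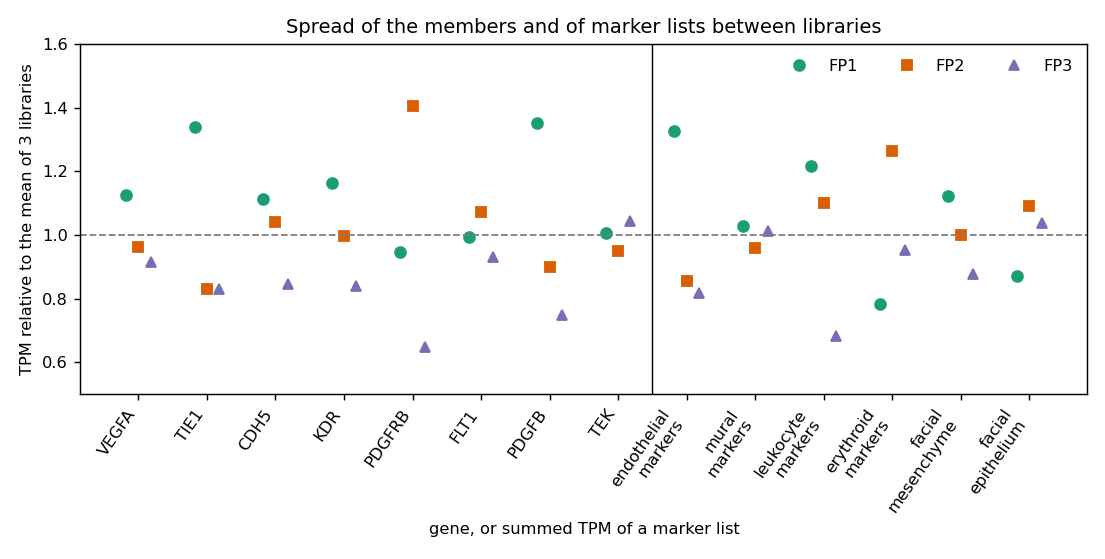
TPM in each library relative to the mean of the 3 libraries, for the vessel genes (left of the line) and for the summed TPM of marker lists (right of it). FP1 is highest for 5 of 8 vessel genes and for the sum of the endothelial markers (448 against 289 and 276 TPM), and PDGFRB is highest in FP2. By TPM, TEK varies by a factor of 1.10 between its highest and lowest library, and with TMM factors by 1.4.

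Other genes of the same signalling systems were taken from lists. All 9 further ligands of the VEGF, angiopoietin and PDGF systems in the table were expressed, out of 11 listed, with a median of 3.21 TPM, below the 11 TPM of the vessel genes. They were led by PDGFC and PDGFA, which signal mainly through PDGFRA, at 54.7 ± 8.05 and 30.7 ± 5.76 TPM (SD, n = 3), and by VEGFB, a ligand of FLT1, at 46.1 ± 22.2 TPM. VEGFB measured 71.8 TPM in FP1 against 32.5 and 34.1 TPM in the other libraries, and VEGFA was 1.22 to 2.31 times higher than it in each of them.

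The main ligands of TEK were low, as was the receptor itself. ANGPT1, which activates the receptor, measured 2.84, 3.87 and 2.92 TPM, and ANGPT2, which mostly opposes it, 1.12, 1.05 and 1.13 TPM. ANGPT1 exceeded ANGPT2 in each library, by 2.94 ± 0.652 times on average.

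All 12 further receptors and co-receptors of vessel growth were expressed, with a median of 14.4 TPM. NRP1, a co-receptor for VEGFA, stood at 40.8 ± 6.51 TPM (SD, n = 3), ENG, an endothelial co-receptor for TGF-beta ligands, at 38.8 ± 7.74 TPM, and PDGFRA, the mesenchymal PDGF receptor, at 32.6 ± 13.8 TPM. PDGFRA was 2.16, 3.17 and 3.89 times PDGFRB in TPM.

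Endothelial markers were all detected. The 12 of 15 listed that were in the table were expressed, with a median of 10.6 TPM, led by PLVAP, by the transcription factor SOX18 at 42.7 ± 8.83 TPM (SD, n = 3) and by the junction protein ESAM at 32.9 ± 6.54 TPM. CDH5 and TIE1 lay near ESAM, and KDR near the median of that list. Lymphatic markers were lower: PDPN, which mesenchyme and epithelium also express, stood at 24.0 ± 0.702 TPM, and FLT4 and LYVE1 at 3.87 and 3.29 TPM. PROX1, the defining factor of lymphatic endothelium, measured 0.685, 1.30 and 1.37 TPM and so missed the expression threshold in FP1.

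Mural markers were the most abundant of the vessel lists, with a median of 56.2 TPM. All 11 in the table were expressed, out of 12 listed. The highest were DES, TAGLN and ACTA2 at 1339 ± 145, 408 ± 123 and 172 ± 58.2 TPM (SD, n = 3), genes that muscle also expresses. PDGFRB, at 10.8 TPM, lay below that median. The 9 arterial and Notch genes in the table, out of 11 listed, were all expressed. EPHB4, the venous ephrin receptor, and JAG1, a Notch ligand, stood at 51.5 and 50.7 TPM and EFNB2, the arterial partner of EPHB4, at 38.8 ± 18.1 TPM. All 6 oxygen-sensing regulators of VEGFA in the table were expressed, out of 8 listed. They were led by EGLN2, a prolyl hydroxylase, at 120 ± 18.3 TPM, and by HIF1A and ARNT, the subunits of the hypoxia-inducible factor, at 59.7 ± 17.3 and 47.9 ± 14.6 TPM.

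Markers of blood cells were read beside these lists. The table held 5 of 8 listed platelet markers, 8 of 10 leukocyte markers and 5 of 8 erythroid markers. Of the platelet list, ITGA2B, GP9 and PLEK measured 8.03, 4.33 and 3.0 TPM, GP1BA stayed under 1 TPM in every library and TUBB1 had 0 fragments in all 3 libraries. Leukocyte markers were led by LAPTM5, TYROBP and CD14 at 14.4, 10.7 and 10.5 TPM. TYROBP rested on FP1, with 19.0, 7.24 and 5.81 TPM in FP1, FP2 and FP3. In the same list the pan-leukocyte gene PTPRC stayed below 1 TPM in each library and AIF1 had 0 fragments. Erythroid markers were led by ALAS2, the rate-limiting enzyme of haem synthesis in red cells, at 195 ± 61.7 TPM, with GATA1 at 21.7 and AHSP at 17.1 TPM.

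A histone peak was used if it passed a q of 0.05 and was found in both replicates, with the overlap covering 50% or more of the replicate 1 or the replicate 2 peak. This left 108146 H3K4me3 and 148724 H3K27ac peaks. Counts, lengths, positions and classes are those of the replicate 1 peaks unless replicate 2 is named. Several replicate 1 peaks could match the same replicate 2 peak, and each was then counted. Height is the fold enrichment over input, given for replicate 1 and replicate 2 in that order, and position is the distance between the TSS and the near edge of the peak, negative upstream. A reproducible H3K4me3 peak lay within 1 kb of the TSS of 6 of the 8 vessel genes, against 67.7% of all gene models and 88.2% of expressed genes. For H3K27ac the count was 7 of 8, against 71.5% and 89.9%. Among expressed genes between the TPM of TEK and that of VEGFA the shares were 88.7% for H3K4me3 and 90.3% for H3K27ac. The exceptions were CDH5 for H3K4me3 and TEK for both marks.

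VEGFA carried the broadest and highest H3K4me3 start site of the set. Its H3K4me3 peak was 6.94 kb long and enriched 47.5-fold and 86.2-fold, and its H3K27ac peak was 7.22 kb long and enriched 37.0-fold and 23.4-fold. Over all 13521 H3K4me3 and 14601 H3K27ac peaks at a TSS the median lengths were 2360 and 2101 bp and the median folds 38.8 and 19.9. Both VEGFA peaks were thus long, at the 94.7th and 94.0th percentile of length, and above the median in height in both replicates.

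PDGFB had long but less enriched peaks, 5.34 kb of H3K4me3 at 32.0-fold and 36.9-fold, and 5.08 kb of H3K27ac at 9.64-fold and 12.3-fold. At the TSS of KDR the H3K4me3 peak spanned 3.32 kb at 32.8-fold and 39.6-fold, close to the median start site, and H3K27ac reached 9.74-fold and 16.7-fold. PDGFRB showed the opposite balance, with H3K4me3 at 23.8-fold and 26.0-fold and H3K27ac at 36.9-fold and 31.8-fold. It was the only member with more H3K27ac than H3K4me3 enrichment in both replicates among those with both marks at the TSS.

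TIE1 shared its start region with a neighbour. The TSS of C4H1orf210, on the opposite strand, lay 153 bp away, and that gene was expressed at 23.3 ± 5.75 TPM (SD, n = 3). The H3K4me3 peak over the shared start was enriched 20.5-fold and 33.3-fold over 3.89 kb, and the H3K27ac peak 13.9-fold and 18.6-fold over 12.3 kb, so the mark belongs to either gene or both and cannot be told apart.

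FLT1 had a modest start site, with H3K4me3 at 18.8-fold and 23.0-fold and H3K27ac at 5.45-fold and 6.92-fold. A stronger site that carried both marks lay 15.1 kb upstream, where H3K4me3 reached 26.8-fold and 33.5-fold and H3K27ac 14.4-fold and 13.3-fold. In both replicates and for both marks the upstream site exceeded the annotated TSS. No other annotated TSS lay within 200 kb of FLT1.

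At the TSS of CDH5 a short H3K27ac peak of 571 bp (425 bp in replicate 2) was enriched 5.64-fold and 4.97-fold. Its mean fold stood at percentile 14.3 of all peaks at a TSS. H3K4me3 was called there in replicate 2 only, at 3.39-fold and a q of 0.000356. The closest H3K4me3 peak of both replicates lay 14.8 kb upstream at 3.59-fold and 4.61-fold. CDH5 had the third highest mean RNA level of the set, while its mean H3K27ac enrichment of 5.30-fold was the lowest of the 7 marked start sites, although FLT1 was lower in replicate 1.

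TEK had no deposited peak of either mark, in either replicate, within 9.50 kb of its TSS, where an H3K27ac peak of replicate 2 alone stood at 3.79-fold. The closest site of both marks and both replicates lay 16.1 kb upstream, with H3K4me3 at 4.67-fold and 4.57-fold and H3K27ac at 3.69-fold and 3.48-fold. A further site of both marks lay 32.5 kb upstream, with H3K4me3 at 5.06-fold and 5.13-fold. The TSS used for every gene is that of a Tasmanian devil gene model carried over to the dunnart assembly.

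**Figure D3:**
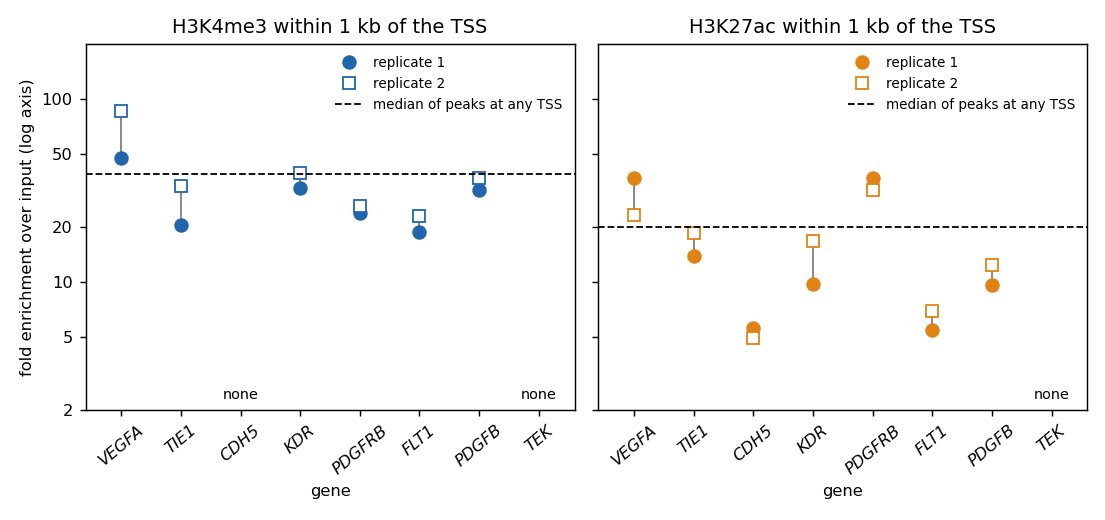
Fold enrichment over input (log axis) of the reproducible peak within 1 kb of the TSS of each vessel gene, for H3K4me3 (left) and H3K27ac (right), with replicate 1 as filled circles, replicate 2 as open squares and the median over all peaks at a TSS as a dashed line. CDH5 lacks a reproducible H3K4me3 peak and TEK lacks both marks, VEGFA lies above both medians (38.8 and 19.9), and FLT1 has the lowest H3K4me3 of the 6 genes with that mark.

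Within 200 kb of their TSS all 8 vessel genes had reproducible peaks of both marks, as did 99.6% of gene models for H3K4me3 and 99.5% for H3K27ac. The windows held 295 H3K4me3 and 394 H3K27ac peaks in all. The median was 30 H3K4me3 and 47.5 H3K27ac peaks per gene, beside medians of 18 and 32 over the 14169 genes with a symbol, whose quartiles were 8 to 44 and 12 to 60.

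The order of the loci by peak number was not that of the genes by RNA level. PDGFB, seventh of 8 in TPM, had the most H3K27ac peaks, 102, with 78 of H3K4me3. PDGFRB had 74 H3K27ac and 44 H3K4me3 peaks, TIE1 66 and 81, and VEGFA 62 and 43. The order of the marks at TIE1 turned to 56 and 47 when replicates had to share 50% of both lengths. The members with fewer peaks were CDH5 with 33 and 12, KDR with 29 and 14, TEK with 14 and 17, and FLT1 with 14 and 6. Single replicates gave more. Replicate 2 alone had 55 H3K27ac and 19 H3K4me3 peaks for CDH5 and 27 H3K27ac peaks for TEK, and replicate 1 alone had 22, 25 and 27 H3K4me3 peaks for CDH5, KDR and TEK. FLT1 thus lay at the 27.9th percentile of genes with a symbol for H3K27ac and the 13.7th for H3K4me3, and PDGFB at the 98.5th and 94.6th. In the same order of marks, TEK lay at the 27.9th and 47.3rd, CDH5 at the 50.7th and 37.9th, and KDR at the 47.3rd and 42.3rd. PDGFRB lay at the 86.8th and 74.7th, TIE1 at the 80.4th and 95.6th, and VEGFA at the 76.2nd and 73.8th.

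Of the 394 H3K27ac peaks, 168 had no H3K4me3 (putative enhancers), 161 shared at least 50% of both lengths with an H3K4me3 peak, and 65 overlapped one in part. Putative enhancers made up 23 of the 33 H3K27ac peaks around CDH5 and 38 of the 74 around PDGFRB, but 13 of the 66 around TIE1. No distance from a TSS was required, so the 23 of CDH5 include the peak over its TSS. The other genes had 41 (PDGFB), 22 (VEGFA), 16 (KDR), 9 (FLT1) and 6 (TEK). Over the whole series, 69124 of the 148724 H3K27ac peaks were putative enhancers. The median enrichment of the 168 was 4.27-fold, next to 4.22-fold over those of the whole series.

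H3K4me3 without H3K27ac made up 23 of 295 peaks, and 9 of these 23 lay around TEK. The share over the whole series was not compared. In its window H3K4me3-only peaks outnumbered the 6 putative enhancers, but without ChIP replicate 1 there were 9 H3K4me3-only peaks against 12 putative enhancers, and within 100 kb 2 against 3. Between matched peaks of the replicates, the fold differed by more than a factor of 2 in 15 of the 295 H3K4me3 and 21 of the 394 H3K27ac peaks. These counts include replicate 1 peaks matched to a broad replicate 2 peak that also matches others. At TIE1, H3K4me3 peaks of 3.95-fold and 5.39-fold in replicate 1 took the 33.3-fold of the replicate 2 peak over the TSS. The counts are therefore not a measure of disagreement at single sites.

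**Figure D4:**
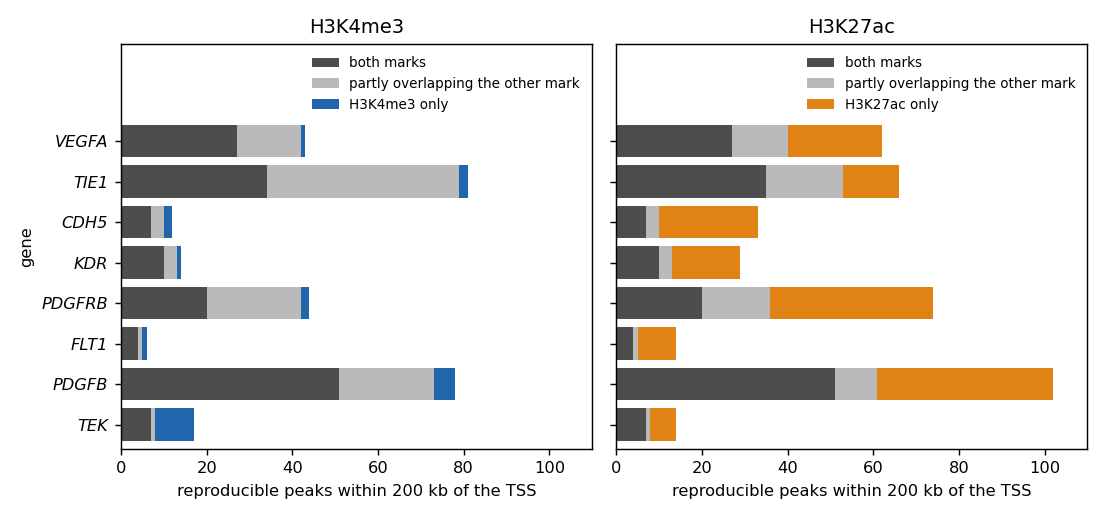
Number of reproducible peaks within 200 kb of the TSS of each vessel gene, split into peaks that share at least 50% of both lengths with the other mark, that overlap it in part, or that carry H3K4me3 only (left, 23 of 295) or H3K27ac only (right, 168 of 394). PDGFB has the most H3K27ac peaks (102), FLT1 and TEK the fewest (14 each, against 19 and 27 in replicate 2 alone), and TEK holds 9 of the 23 H3K4me3-only peaks.

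A window of this width takes in other genes, so the nearest TSS was also read. For 125 of the 394 H3K27ac peaks, and for 57 of the 168 putative enhancers, the vessel gene was the nearest TSS. VEGFA was nearest to 40 of its 62 H3K27ac peaks and CDH5 to 25 of 33, while FLT1 was nearest to 9 of 14 and TEK to 8 of 14. TIE1 was nearest to 1 of 66, KDR to 4 of 29, PDGFRB to 14 of 74 and PDGFB to 24 of 102. A peak that covered several TSSs was given to the first along the scaffold. The H3K27ac peak over the shared start of TIE1 was thus counted for C4H1orf210 and is not among the 125.

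The VEGFA locus was dense close to the gene. Its own body held 7 H3K27ac peaks, all of which overlapped H3K4me3. The strongest site of both marks by H3K4me3, away from any TSS, lay over an exon 16.5 kb into the gene at 7.56-fold and 6.85-fold. By H3K27ac it was a site 86.0 kb upstream (scaffold00068, 6760367 to 6763191) at 16.2-fold and 15.5-fold, with MRPS18A as the nearest TSS, 35.3 kb away. Its strongest putative enhancer lay 171 kb downstream of the TSS at 7.35-fold and 7.90-fold, with VEGFA still the nearest gene. In all loci the strongest peaks were ranked by the lower of the replicates' folds, leaving out peaks within 1 kb of any TSS. The neighbours with a symbol were MRPS18A, RSPH9 and MAD2L1BP, at 65.5, 4.89 and 10.9 TPM, and the closest of them, MRPS18A, lay 124 kb away.

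CDH5 had no neighbour with a symbol within 200 kb, and 18 of its 23 putative enhancers, the peak over the TSS included, had CDH5 as the nearest TSS. Within the gene 6 of 7 H3K27ac peaks lacked reproducible H3K4me3. Among these 6, the TSS peak overlapped H3K4me3 of replicate 2 alone. A peak 13.4 kb into the gene overlapped H3K4me3 of replicate 1 alone, at 3.37-fold. The strongest putative enhancer lay 96.7 kb upstream (scaffold00007, 34083578 to 34084151) at 5.85-fold and 7.06-fold. Sites of both marks were stronger than anything at the TSS: 1 at 49.3 kb upstream had H3K4me3 at 8.25-fold and 13.5-fold, and 1 at 188 kb upstream had H3K27ac at 17-fold and 15.8-fold.

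Around KDR most H3K27ac peaks lay far from the start. The gene body held 2 of them, the TSS peak included, and their median distance in the window was 148 kb. The strongest putative enhancer, 106 kb downstream of the TSS, had 6.19-fold and 4.79-fold. A short site of both marks at 126 kb downstream (scaffold00001, 82216178 to 82216866) reached 25.9-fold and 30.3-fold for H3K4me3 and 11.7-fold and 7.90-fold for H3K27ac, but the unnamed model LOC116419838, at 0 TPM, was nearer to both than KDR. SRD5A3 and TMEM165, the neighbours with a symbol, were expressed at 5.86 and 79.1 TPM.

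FLT1 and TEK are the longest members, and their windows held the fewest H3K27ac peaks of the set. For H3K4me3 only FLT1 was low, while TEK stood at the 47.3rd percentile of genes with a symbol. In FLT1 4 of 5 H3K27ac peaks of the gene body lacked reproducible H3K4me3, and the strongest lay in an intron 82.7 kb from the TSS at 4.20-fold and 4.09-fold. In TEK all 4 H3K27ac peaks of the gene body lay in introns and 2 lacked reproducible H3K4me3. The strongest putative enhancer of the TEK window, 195 kb downstream of the TSS and beyond the gene, reached 5.55-fold and 4.26-fold. Outside 1 kb of any TSS, the strongest site of both marks lay 178 kb upstream, with H3K27ac at 40.3-fold and 30.0-fold. It lay 7.78 kb from the TSS of PLAA, where a stronger H3K27ac peak stood at 84.8-fold and 58.3-fold. PLAA was expressed at 24.7 TPM, and the other neighbour, LRRC19, had 0 TPM.

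PDGFB and PDGFRB lay among more peaks. The strongest putative enhancer near PDGFB, 164 kb upstream at 9.54-fold and 6.95-fold, was 4.94 kb from the TSS of TAB1. Outside 1 kb of any TSS, the strongest PDGFB site of both marks by H3K4me3 lay 133 kb upstream at 64.7-fold and 74.4-fold, nearest to SYNGR1. The strongest by H3K27ac, 117 kb downstream of the TSS at 12.1-fold and 17.1-fold, was nearest to CBX6. The neighbours TAB1, SYNGR1, RPL3, CBX7, CBX6 and NPTXR ranged from 2.1 TPM for NPTXR to 2377 TPM for the ribosomal protein gene RPL3.

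PDGFRB had 18 H3K27ac peaks in its own body, the most of the set, of which 4 lacked reproducible H3K4me3. The strongest putative enhancer, 103 kb upstream (scaffold00039, 12849541 to 12850652), reached 6.96-fold and 8.22-fold, with SLC6A7 as the nearest TSS. Outside 1 kb of any TSS, the strongest site of both marks by H3K4me3 lay 75.8 kb upstream at 5.39-fold and 5.30-fold, 2.67 kb from the TSS of SLC6A7. By H3K27ac it lay 195 kb upstream at 8.55-fold and 8.97-fold, 5.54 kb from the TSS of CAMK2A. CSF1R, the macrophage receptor that lies 93.5 kb from PDGFRB, measured 4.19, 9.84 and 3.08 TPM in FP1, FP2 and FP3. The other neighbours were CDX1 and SLC6A7, at 0.0413 and 0.142 TPM, and TIGD6 and HMGXB3, at 3.0 and 20.1 TPM.

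TIE1 sat in the most crowded window, with 9 neighbours with a symbol. They were C4H1orf210, TMEM125, CDC20, ELOVL1, CFAP57, EBNA1BP2, FAM183A, AIRE and MED8, from 0.220 TPM for FAM183A to 489 TPM for ELOVL1. The strongest putative enhancer, 74.8 kb downstream of the TSS at 7.74-fold and 10.6-fold, was 5.74 kb from ELOVL1. Outside 1 kb of any TSS, the strongest site of both marks by H3K4me3 lay 43.3 kb downstream at 19.1-fold and 19.4-fold, nearest to CDC20. H3K4me3 was higher at TSSs of neighbours, as at MED8 with 83.0-fold and 74.9-fold. By H3K27ac the strongest site lay 197 kb upstream at 48.3-fold and 38.1-fold, 1.46 kb from the TSS of LOC100917444. The H3K4me3 peak there lay 0.631 kb from that TSS.

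**Figure D5:**
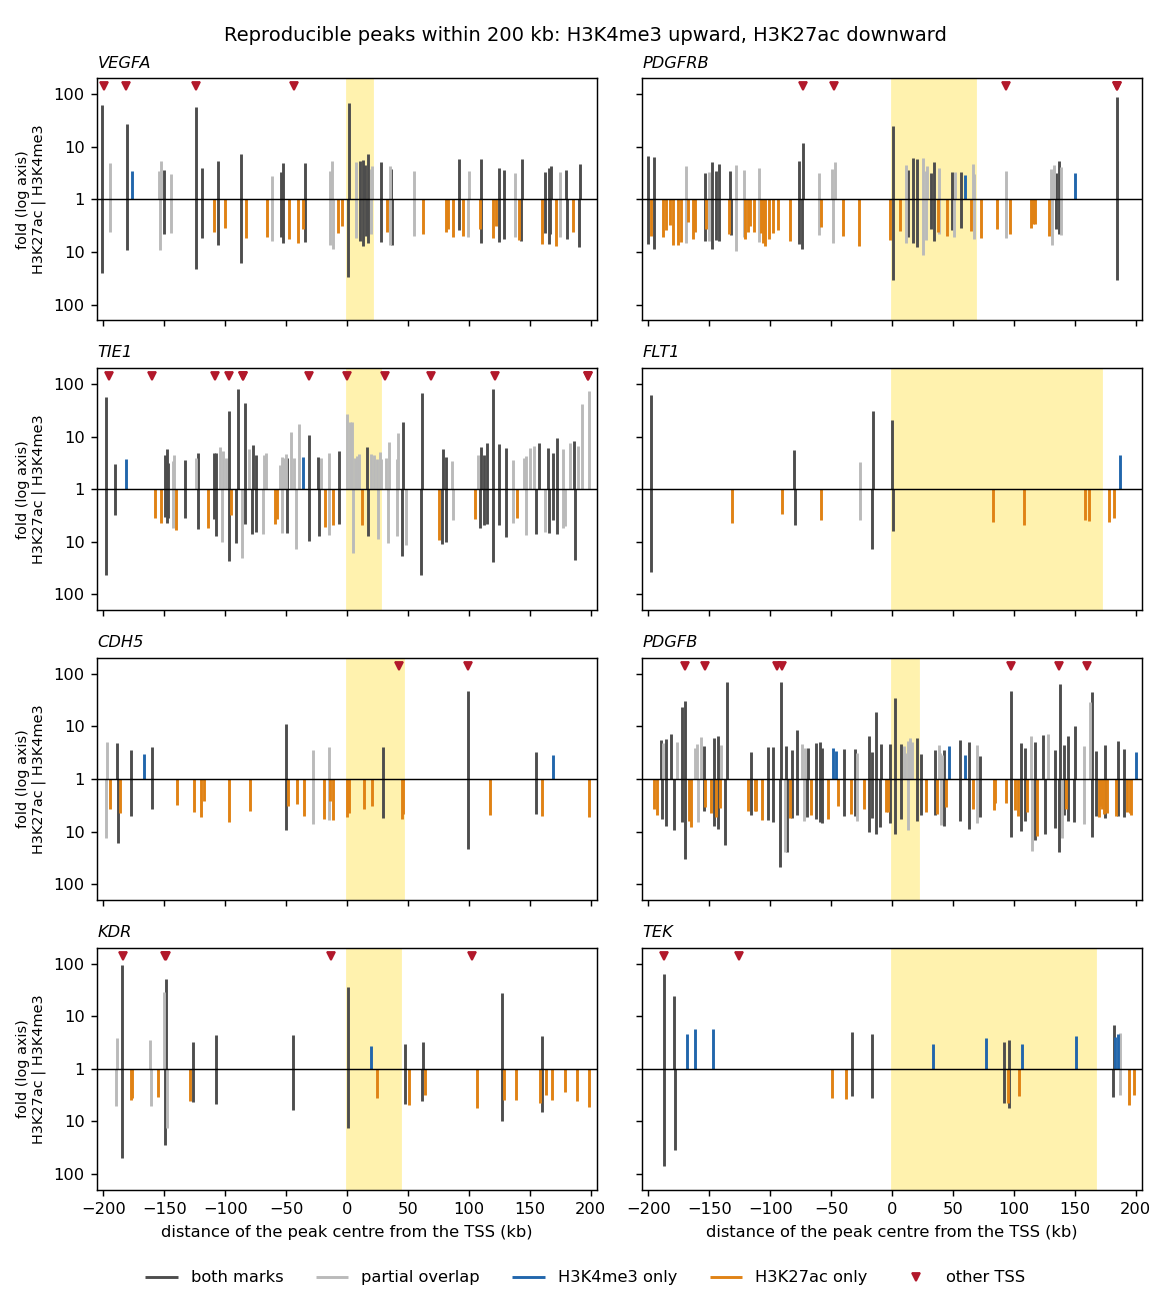
Reproducible peaks around each vessel gene by distance of the peak centre from the TSS (kb, negative upstream), with the mean fold of both replicates on a log axis, H3K4me3 upward and H3K27ac downward, coloured by class. The gene body is shaded and triangles mark other TSSs. PDGFB and TIE1 sit among many peaks of both marks, and FLT1 and TEK have the fewest H3K27ac peaks. Of the H3K27ac peaks of CDH5, 23 of 33 are H3K27ac only, and TEK has no peak at its TSS.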

How the data were processed

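ChIP reads were processed by the authors, who cut adapters with cutadapt (1.9.1), mapped reads to their own dunnart scaffolds with Bowtie2 (2.3.5.1), filtered with SAMtools (1.9) and Picard (2.23.1), and called peaks per replicate with MACS2 (2.1.1) against the input of that pool. The deposited peaks give fold enrichment over input, a ratio, and −log10 of the p-value and q-value, and reach an unadjusted p of 0.01, so q was set again at 0.05. Deposited counts per gene over exons came from Trimmomatic (0.39), HISAT2 (2.21) and stranded featureCounts (Subread 2.0.1), with gene models that Liftoff carried over from the Tasmanian devil. The 11 models on broken lines were not used for counts.

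Counts were divided by exon length and scaled to TPM in Python (3.11.15) with pandas (2.3.3) and numpy (2.4.6), overlaps with bedtools (2.31.1), and alternative scalings with edgeR (4.0.16) and DESeq2 (1.42.0) in R (4.3.3). TPM, overlap, classes and windows were tested on simulated data. Counts set the precision of low genes, and the peak files give no depth for the ChIP libraries, for which the study states an average that was not used here. Columns of the count table match the RNA group but not the replicate numbers. Parentage of the pooled young was not analysed here. Members and lists were chosen with earlier results of these data known. The members are described in full, other lists by their 3 highest genes and, where at most 3, those under 1 TPM throughout, and loci by the TSS peak, the strongest peaks and neighbours with a symbol within 200 kb.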

Additional observations from a re-analysis of the deposited data

How the results depend on the processing

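No paired analysis was possible because the series has no groups to compare and no result comes from a test. Leaving out any 1 RNA library kept 8 members expressed, and a minimum of 5 TPM in every library left 7 and dropped TEK. Other scalings and gene filters were not tried for this count. The median member level was 9.94 to 12.4 TPM when 1 RNA library was left out, against 11 TPM. Without the 20 genes of highest TPM, VEGFA, CDH5, KDR, FLT1 and TEK moved by more than their SD, to 94.0, 37.0, 13.5, 10.5 and 4.80 TPM. TMM factors and DESeq2 size factors, as alternatives chosen after seeing the data, left 5 members and 10 endothelial markers highest in FP1. Leaving out ChIP replicate 1 gave CDH5 an H3K4me3 peak at its TSS, so 7 rather than 6 members had one, and the 7 with H3K27ac were kept by every alternative. With 1 ChIP replicate alone the members had 359 to 391 H3K4me3 and 477 to 513 H3K27ac peaks, and 25 to 44 H3K4me3-only peaks, 44 without replicate 2. A window of 100 kb gave 150 H3K4me3 peaks (76 of both marks, 9 of H3K4me3 only) and 187 H3K27ac peaks (76 of both marks, 73 of H3K27ac only). The H3K4me3-only count, 23, was 13 at q under 0.001 and 44 when replicates had to share 50% of both lengths. Counting 1 shared base as both marks raised the H3K4me3 peaks of both marks from 160 to 272. The smaller window and looser overlap change these counts by construction, and for the others the cause was not tested. Of values for single genes 134 moved little and 34 moved by more than their SD or 1.5 times. Orders between neighbours in TPM, spreads between libraries, the order of marks at TIE1 and peak counts with 1 ChIP replicate that turned or moved stand beside those values in the report. Other peak counts moved at q under 0.001. H3K4me3 peaks were then 28 for VEGFA, 28 for PDGFRB, 8 for KDR and 6 for CDH5, and H3K27ac peaks 9 for FLT1 and 9 for TEK. With 50% of both lengths between replicates TEK had 8 H3K27ac peaks. The spreads under other scalings and the single-mark counts of each gene under other settings were added after seeing the data.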
